A study of Mus musculus with 3 samples.

Results

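The members are 33 mouse genes for pre-mRNA splicing factors, listed by symbol when earlier results of these data were known. They were found by symbol among 21887 protein-coding genes of the RefSeq table for mm10, and all 33 matched. By role they are 11 genes for SR proteins, 9 for subunits of the SF3A and SF3B complexes, 2 for U2AF, 8 of the PRPF series and 3 LUC7-like genes. The material was CUT&Tag on 3 libraries of LSK cells sorted from mouse bone marrow, a fraction without lineage markers, positive for Sca-1 and Kit, that contains the blood stem cells. CUT&Tag uses an antibody to bring a DNA-cutting transposase to a chromatin protein, here Bcl11a, a zinc finger repressor, carrying a 3xFlag tag at its N-terminus from a knock-in allele. The genotype label reads wildtype for all 3 samples. The ages of the mice and how many animals gave each library are not given in the sources used here, so an SD below is the spread between libraries, whatever its origin. There is 1 group and nothing to compare it with, and no untagged, IgG or input library was analysed here. Whether a region depends on the tagged protein was therefore not tested.

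Introns are removed by the spliceosome, which assembles on each transcript from small nuclear ribonucleoproteins and many loosely bound proteins. The U1 particle reads the 5′ splice site with help from LUC7-like proteins. U2AF reads the 3′ splice site and brings in the U2 particle, whose SF3A and SF3B complexes hold the branch point. PRPF proteins belong to the U4/U6.U5 tri-snRNP or to the complexes that activate the spliceosome. SR proteins bind exons and recruit these parts. In blood, SF3B1, SRSF2, U2AF1 and ZRSR2 are the splicing genes mutated most often in myelodysplastic syndromes and clonal haematopoiesis.

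The peak lists held 38739, 36466 and 43469 peaks in libraries 1, 2 and 3. Peaks of different libraries that overlapped by at least 1 bp were joined, and the 22987 joined regions with a peak of all 3 libraries are called reproducible. A gene is called occupied when such a region lies within 1 kb of an outer end of its annotation. Fold enrichment is the authors' value for a peak, the summit pileup over the local background, and the value for a gene is that of its strongest reproducible end region. The library background (fragments per base) was 1.07 in library 1, 1.41 in library 2 and 1.95 in library 3, so equal enrichment rests on fewer fragments in library 1. As a check of the cell label, 7 of 10 LSK marker genes were occupied (Kit among them, but not Ly6a, which encodes Sca-1), against 0 of 6 markers of mature lineages, 0 of 4 of endothelium and stroma and 45.2% of all protein-coding genes. Counting instead reproducible regions farther off (over 1 kb from both ends, inside the gene or within 20 kb), 9 of 10 LSK markers, 4 of 6 lineage markers and 3 of 4 endothelium and stroma markers had one, beside 52.1% of all protein-coding genes, so the check rests on the gene ends alone. Peaks do not measure expression.

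The promoters below are those of the 2 most enriched members, the least enriched occupied member and a member with no peak at either end. Each is the 250 bases before the start listed by RefSeq (GRCm38.p6, the assembly behind mm10), on the gene's strand. Counted from that start, with negative values before it, the Srsf1 summits lay at 149, 78 and 189 bp in libraries 1, 2 and 3. Those of Srsf2 lay at -240, -377 and -378 bp, and those of Srsf6 at -192, -390 and -292 bp. Most of these summits therefore fall outside the printed stretches. Capitals mark matches on either strand to TGACCA, the core reported for BCL11A, to TGNCCA, which contains it, to CCGGAAG, a core of ETS factors, to CCAAT, bound by NF-Y, and to AGATAA, bound by GATA factors. Srsf1 lies at chr11:88047123-88047372 (plus strand), Srsf2 at chr11:116853095-116853344 (minus strand), Srsf6 at chr2:162931258-162931507 (plus strand) and Sf3a3 at chr4:124714611-124714860 (plus strand).
Srsf1: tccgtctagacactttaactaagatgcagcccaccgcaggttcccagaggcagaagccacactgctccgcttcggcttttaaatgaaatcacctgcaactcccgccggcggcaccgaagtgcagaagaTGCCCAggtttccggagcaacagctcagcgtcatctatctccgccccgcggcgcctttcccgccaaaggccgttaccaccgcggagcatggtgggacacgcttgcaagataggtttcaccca
Srsf2: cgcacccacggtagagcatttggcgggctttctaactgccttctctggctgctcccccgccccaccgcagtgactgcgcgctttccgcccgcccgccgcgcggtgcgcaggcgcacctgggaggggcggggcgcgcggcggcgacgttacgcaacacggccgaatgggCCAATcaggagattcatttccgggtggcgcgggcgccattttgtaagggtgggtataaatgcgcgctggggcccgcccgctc
Srsf6: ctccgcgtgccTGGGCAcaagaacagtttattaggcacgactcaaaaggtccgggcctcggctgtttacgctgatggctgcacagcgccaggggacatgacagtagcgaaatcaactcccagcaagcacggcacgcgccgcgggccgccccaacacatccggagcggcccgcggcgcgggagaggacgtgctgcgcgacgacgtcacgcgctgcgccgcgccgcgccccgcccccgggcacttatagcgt
Sf3a3: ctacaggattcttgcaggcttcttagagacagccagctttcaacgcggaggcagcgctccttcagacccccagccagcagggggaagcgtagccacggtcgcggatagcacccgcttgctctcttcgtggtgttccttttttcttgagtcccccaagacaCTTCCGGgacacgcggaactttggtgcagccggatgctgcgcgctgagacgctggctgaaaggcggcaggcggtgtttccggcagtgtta
None of these 4 stretches holds TGACCA. Srsf1 holds TGCCCA, which matches TGNCCA. Srsf2 holds CCAAT. Srsf6 holds TGGGCA, which matches TGNCCA on the opposite strand. Sf3a3 holds CTTCCGG, which matches CCGGAAG on the opposite strand. A match is only a run of letters, and no binding is read from its presence or absence.

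Of the 33 splicing factor genes, 31 (93.9%) were occupied, where 45.2% of all protein-coding genes were. The occupied members were 10 of 11 SR protein genes, 8 of 9 SF3 genes, 2 of 2 U2AF genes, 8 of 8 PRPF genes and 3 of 3 LUC7-like genes. Asked singly, each library had a peak at an end of 32 of the 33 members (97.0%), beside 50%, 52.5% and 53.9% of protein-coding genes in libraries 1, 2 and 3. The difference was not tested, and the shares are a description of a list chosen with earlier results of these data known. With the 10000 peaks of lowest q in each library, 16 members (48.5%) and 20.6% of protein-coding genes were occupied.

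The 2 genes that were not occupied missed in different ways. Srsf12, an SR protein gene, had a peak in every library, but the peaks did not overlap. Libraries 1 and 2 placed theirs together at chr4:33209380-33209810, with fold enrichments of 7.25 and 4.99 and pileups of 14 and 11 fragments. Library 3 placed its own at chr4:33208961-33209376, with 3.73 and 10 fragments, and 3 bases separated it from the other region. Srsf12 therefore stands just outside the rule, and it was occupied when library 3 was left out or when peaks of 2 libraries sufficed. Sf3a3, the third subunit gene of SF3A, had no peak of any library within 1 kb of either end. It had 4 reproducible regions farther off, the nearest of them 4751 bp away at an end of Fhl3.

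Where they were occupied, these genes had about the same enrichment as occupied genes at large. The median of the mean log2 fold enrichment was 2.87 for the 31 members and 2.87 for all 9902 occupied protein-coding genes, on the linear scale 7.31 and 7.33. In libraries 1, 2 and 3 the members' median was 7.75, 7.48 and 7.98, beside 7.38, 7.66 and 7.14 for all occupied genes. The members lay above in libraries 1 and 3 and below in library 2. Mean fold enrichment ran from 5.21 at Srsf6 to 13.5 at Srsf1, and 15 of the 31 were above the middle of all occupied genes.

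**Figure D1:**
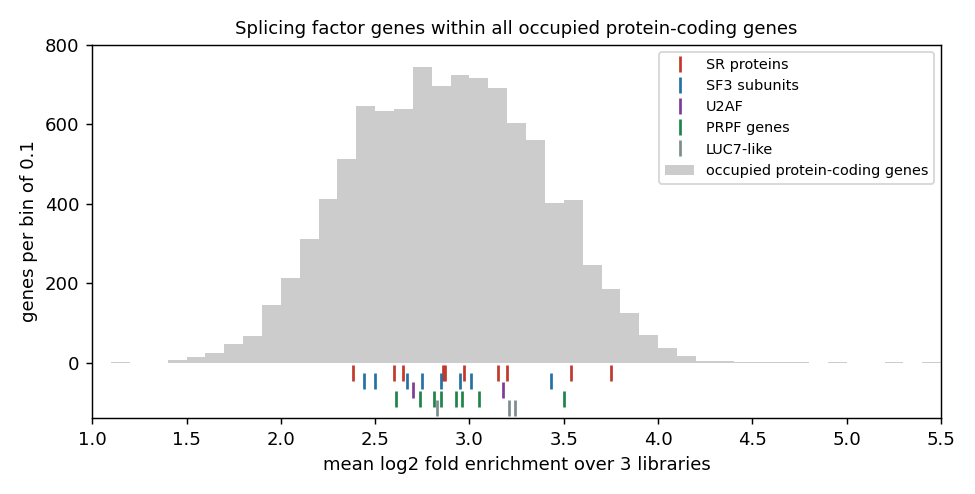
The grey histogram counts the 9902 occupied protein-coding genes by mean log2 fold enrichment over 3 libraries (x axis, bins of 0.1), and each coloured tick below it is an occupied splicing factor gene, 1 row per class. The ticks spread over the bulk of the histogram, from 2.38 at Srsf6 to 3.75 at Srsf1.

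Among SR protein genes, Srsf1 and Srsf2 stood highest. Srsf1, the founding SR protein and a regulator of many alternative exons, had fold enrichments of 11.8, 14.7 and 13.9 in libraries 1, 2 and 3 (13.5 ± 1.49, SD, n = 3), with pileups of 37, 71 and 89 fragments. Its region (chr11:88047241-88048557) ranked 353 of the 9902 occupied genes. All 3 libraries placed it above 11, with library 1 lowest. The region covers the listed start of Srsf1, which lies 874 bp inside the annotated outer end, and stays 742 bp from that end, so a 250 bp window at the outer end misses it.

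Srsf2, an SR protein that recognises exonic enhancers, had fold enrichments of 9.75, 12.8 and 12.6 (11.7 ± 1.71, SD, n = 3) and pileups of 58, 121 and 110 fragments. Library 1 was again the lowest. The region (chr11:116852687-116854002) also lies within 1 kb of an end of Mfsd11, which runs the other way, so the signal cannot be given to Srsf2 alone. Counted from the listed Srsf2 start, with negative values before it, its summits lay at -240, -377 and -378 bp, on the side of Mfsd11. By pileup over the library background, Srsf2 was the highest of all members at 65.6 ± 17.69 (SD, n = 3).

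The middle of the SR class was held by Srsf9 at 9.18 ± 0.59, Srsf7 at 8.89 ± 0.55, Srsf10 at 7.90 ± 1.03, Srsf4 at 7.35 ± 0.89 and Srsf3 at 7.27 ± 0.70 in fold enrichment (SD, n = 3). Srsf3 and Srsf7 encode small SR proteins that also serve mRNA export, and Srsf10 a splicing repressor when dephosphorylated. Srsf7 shares its region with Gemin6, a gene of the SMN complex that assembles snRNPs. Srsf3 shares its region with a lncRNA gene, Gm16196.

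Srsf5, Srsf11 and Srsf6 were the weakest of the class. Srsf6 had 5.56, 5.07 and 4.98 (5.21 ± 0.31, SD, n = 3), with only 13, 14 and 17 fragments at the summit, yet its region of 1660 bp was the widest of all members. Srsf5 had 6.49, 6.23 and 6.15 (6.29 ± 0.18, SD, n = 3), the smallest spread of any member. Srsf11 had the largest spread, with 4.84 and 5.19 in libraries 1 and 2 and 8.87 in library 3 (6.30 ± 2.23, SD, n = 3). Srsf11 rests on pileups of 9, 13 and 27 fragments, lowest in library 1. A second start listed inside Srsf11 had a peak in libraries 1 and 2 (6.29 and 8.43) and none in library 3.

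**Figure D2:**
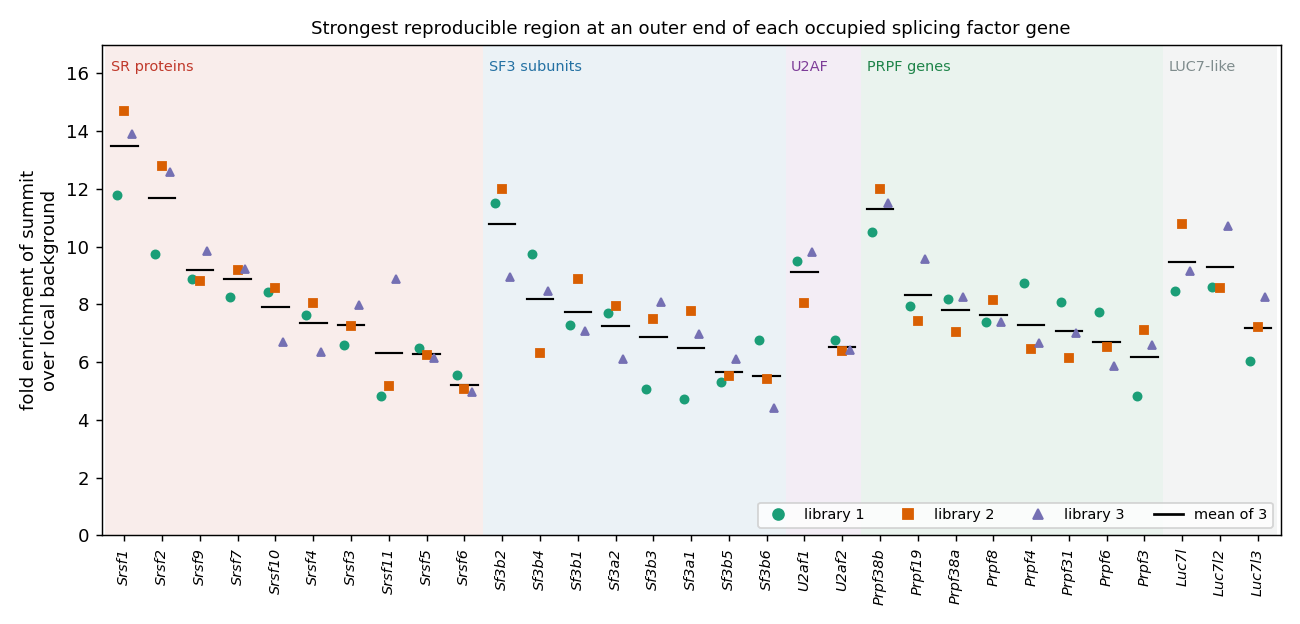
Fold enrichment over local background (y axis) of the strongest reproducible end region for the 31 occupied genes, by class, with 1 symbol per library and a bar at the mean of 3. Srsf1 at 13.5, Srsf2 at 11.7, Prpf38b at 11.3 and Sf3b2 at 10.8 are the only genes with a mean above 10, and the libraries of Srsf11 lie farthest apart. The Sf3b2 value is from its 3′ end region, shared with Pacs1, and its 5′ end region had a mean of 9.24.

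The SF3 genes had the lowest class median, 6.97, although the classes overlapped widely. Sf3b2 stood out with 11.5, 12.0 and 8.96 in libraries 1, 2 and 3 (10.8 ± 1.64, SD, n = 3), library 3 being the lowest. That region (chr19:5272222-5273759) is at the 3′ end of Sf3b2 and also at an end of the neighbouring Pacs1. At its 5′ end, Sf3b2 had a region of its own (chr19:5295083-5295924) with 8.17, 10.8 and 8.72 (9.24 ± 1.40, SD, n = 3). Both are high for the class. SF3B2 is an SF3B subunit that touches the pre-mRNA next to the branch site.

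Sf3b1 encodes the scaffold of SF3B that clamps the branch helix and is the target of splicing inhibitors. It had 7.27, 8.89 and 7.08 (7.75 ± 1.0, SD, n = 3), close to the median of all occupied genes. Its region (chr1:55027128-55027759) holds summits at -30, -5 and -31 bp from the listed start, and another reproducible region of 4.20 ± 0.21 (SD, n = 3) lay 1336 bp beyond the same end. Sf3b4 reached 8.17 ± 1.74 and Sf3b3 6.88 ± 1.60 (SD, n = 3).

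The other occupied SF3 genes were modest. Sf3a2 had 7.25 ± 1.0 and Sf3a1 6.49 ± 1.57 (SD, n = 3), both in regions shared with a neighbour, Plekhj1 and Ccdc157. Among the members, Sf3b5 and Sf3b6 encode the smallest SF3B proteins. They had 5.65 ± 0.41 and 5.53 ± 1.18 (SD, n = 3) on pileups of 10 to 17 fragments. The Sf3b5 gene is 734 bp long, so its single region counts for both ends. With peaks of −log10 q of at least 5, 5 of the 9 SF3 genes were occupied, Sf3a1, Sf3b3 and Sf3b6 being lost.

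The U2AF genes differed from each other. U2af1, the small subunit that reads the AG at the 3′ splice site, had 9.49, 8.06 and 9.82 (9.13 ± 0.93, SD, n = 3). U2af2, the large subunit that binds the polypyrimidine tract, had 6.75, 6.38 and 6.43 (6.52 ± 0.20, SD, n = 3). Each library put U2af1 above U2af2, and their values do not overlap. The summits in U2af1 agreed to 4 bp over the 3 libraries, the closest of any member. U2af2 was the only member with regions at both ends and inside the gene: a further end region, shared with Epn1, had 5.64 ± 0.68 and the inner one 4.27 ± 0.43 (SD, n = 3). By pileup over the library background the order was turned, with 34.1 ± 1.34 at U2af2 and 25.5 ± 3.90 at U2af1 (SD, n = 3).

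All PRPF genes were occupied, mostly at a middling level. Prpf38b, a gene for a relative of the spliceosome protein PRPF38A, led with 10.5, 12.0 and 11.5 (11.3 ± 0.78, SD, n = 3). Every library placed it above the other PRPF genes. Prpf19, the ubiquitin ligase that activates the spliceosome, had 8.32 ± 1.14, and Prpf38a 7.82 ± 0.68 (SD, n = 3). Prpf8, the core protein of the catalytic centre, had 7.39, 8.16 and 7.40 at a region beyond its 3′ end shared with Rilp, and 9.66, 6.15 and 5.59 at its own 5′ end, where library 1 stood apart.

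Prpf4, Prpf31, Prpf6 and Prpf3, all genes of U4/U6 or tri-snRNP proteins, ran from 7.29 ± 1.26 through 7.08 ± 0.99 and 6.70 ± 0.96 to 6.17 ± 1.19 (SD, n = 3). Prpf3 rested on the fewest fragments of the class, with pileups of 9, 17 and 19. Prpf4 shares its region with Cdc26, of the anaphase-promoting complex, and Prpf31 with Tfpt.

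The LUC7-like genes had the highest class median, 9.24, but there are 3 of them. Luc7l had 9.46 ± 1.17, Luc7l2 9.29 ± 1.24 and Luc7l3 7.17 ± 1.11 (SD, n = 3). Luc7l2, lost or mutated in some myeloid neoplasms, had pileups of 55, 79 and 119 fragments. Its region covers the annotated outer end, while the only start that the promoter table lists for it lies 4389 bp farther in and had no reproducible region within 1 kb.

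The order of members was loose. Of the 30 pairs of neighbours in the order of mean fold enrichment, 1 differed by more than the larger of their SDs, Srsf1 over Srsf2 (gap 1.75, larger SD 1.71). Class medians in libraries 1, 2 and 3 were 7.95, 8.31 and 8.42 for SR genes, 7.02, 7.62 and 7.02 for SF3 genes, and 8.03, 7.07 and 7.21 for PRPF genes. SR genes lay above SF3 genes in each library. PRPF genes lay above SF3 genes in libraries 1 and 3 and below them in library 2. Genes of a class are not replicates, and with 3 libraries no exact test could pass 0.05, so none was run.

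SR genes had wider peaks than SF3 and PRPF genes. The median width of the strongest peak in libraries 1, 2 and 3 was 817, 992 and 1273 bp for the 10 occupied SR genes, 554, 632 and 720 bp for SF3 genes and 643, 673 and 617 bp for PRPF genes. For all occupied protein-coding genes it was 580, 741 and 767 bp. Each library gave the SR class the widest of these medians. The 2 U2AF genes had 741, 1079 and 1119 bp, wider than the SR median in library 2, and the 3 LUC7-like genes 665, 582 and 896 bp. The 11 occupied hnRNP genes, outside the members, had 961, 1007 and 1193 bp, wider than the SR median in libraries 1 and 2. Pileup over the library background had medians of 26.9 for SR, 14.2 for SF3, 29.4 for U2AF, 18.3 for PRPF and 19.8 for LUC7-like genes, beside 21.3 for all occupied genes. In single libraries it was 24.8, 27.0 and 27.5 for SR genes and 16.4, 13.9 and 14.9 for SF3 genes.

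The local and library-wide measures gave different leaders. Sf3a2, in the middle by fold enrichment, had a pileup over the library background of 52.2 ± 8.13, and Prpf6 had 37.0 ± 4.12 (SD, n = 3). Luc7l2 and Sf3b2 reached 56.3 ± 4.82 and 57.0 ± 11.80, and Srsf1 43.6 ± 8.12 (SD, n = 3). The Sf3b2 value is from its 3′ end region, shared with Pacs1, with pileups of 62, 96 and 87 fragments in libraries 1, 2 and 3. The region at the 5′ end of Sf3b2 had 24, 43 and 39. Fold enrichment divides by the signal around a peak, and the other measure divides by the library background. Why the leaders differ was not tested.

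**Figure D3:**
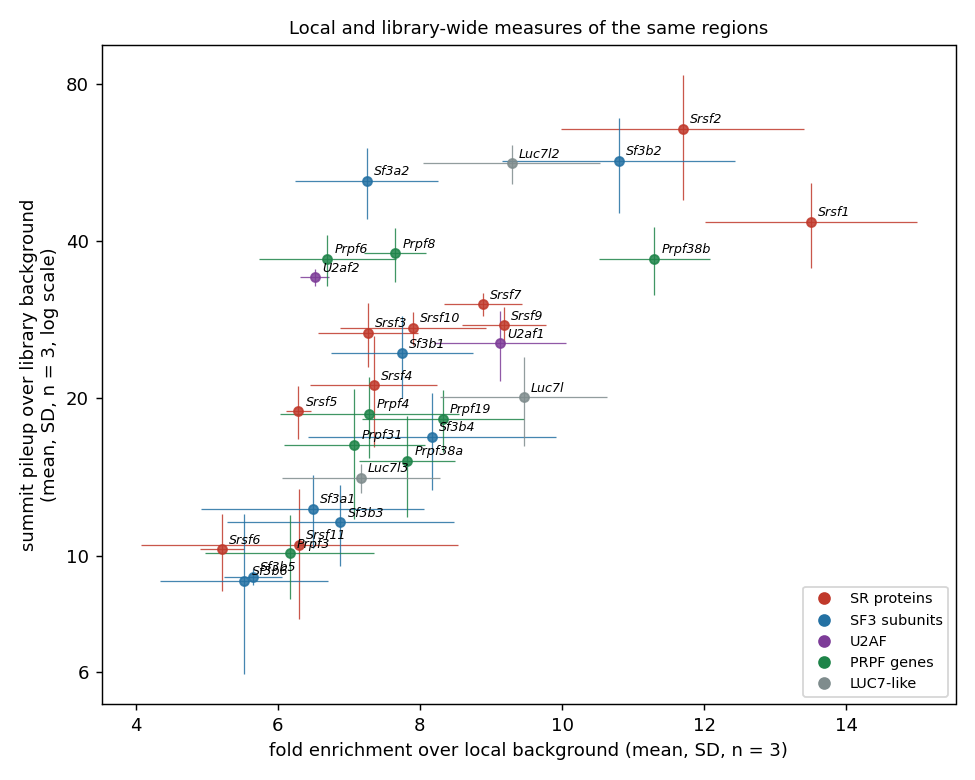
Each point is an occupied gene, with fold enrichment over local background on the x axis and summit pileup over the library background on the y axis (log scale), as means with SD bars over 3 libraries. Sf3a2 sits high at 52.2 on the y axis for its 7.25 on the x axis, and Luc7l lies at 20.1 for 9.46.

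Of the 2 ends of a gene, the 5′ end held most of the end regions. Farther regions, given below, are not part of this count. Strand and starts were listed for 29 members, not for Sf3b4, Sf3b5, U2af2 and Luc7l. Of the 27 occupied ones among them, 25 (92.6%) had a reproducible region only at the 5′ end, 0 only at the 3′ end, and 2, Sf3b2 and Prpf8, at both. For all 8026 occupied protein-coding genes with a listed start, 86.8% had it only at the 5′ end. A reproducible region lay within 1 kb of a listed start in 26 of 29 members (89.7%), beside 46.9% of 17492 protein-coding genes. The exceptions were Srsf12, Sf3a3 and Luc7l2.

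In those 26 genes the middle summit of the 3 libraries fell before the start in 14 and after it in 12. In 25 of 26 it lay within 400 bp of the start. The libraries agreed best at U2af1, Sf3b3 and Sf3b1. They were farthest apart at Srsf5, with summits 519, 458 and 43 bp after the start, which makes the position there a range. Over all 31 occupied members, the median distance between the outermost summits of a region was 146 bp.

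Regions were often shared with a neighbour. Of the 31 strongest regions, 12 (38.7%) also lay within 1 kb of an end of another protein-coding gene, beside 29.4% of all occupied genes. For 3 more, only a noncoding gene had an end within 1 kb. By class, 3 of 10 SR, 5 of 8 SF3, 1 of 2 U2AF, 3 of 8 PRPF and 0 of 3 LUC7-like genes shared one with a coding gene. Besides the pairs named above, Sf3b3 shared with Cog4, Sf3b4 with Mtmr11, U2af2 with Ccdc106 and Srsf11 with Lrrc40. The 16 members whose region lay within 1 kb of no other gene's end include Srsf1, Sf3b1, U2af1 and Prpf38b. Whether a region lay in the body of another gene was not counted.

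Promoters of the class differed in the letters they hold. The 300-base windows that RefSeq gives (250 bases before and 50 after the start) were searched on both strands for 29 members. CCGGAAG was in 13 of them (44.8%), beside 12.9% of all protein-coding genes and 20.4% of occupied ones with a window. By class it was in 6 of 7 SF3 genes, 4 of 11 SR genes, 3 of 8 PRPF genes, 0 of 1 U2AF gene and 0 of 2 LUC7-like genes. Among the 7 SF3 genes with a window only Sf3b1 lacked it, and unoccupied Sf3a3 had it. Sf3b4 and Sf3b5 had no window and were not searched.

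To show these ETS-type letters in place, a stretch of 60 bases that holds them, taken from the 250 before the start, is given for the 6 SF3 genes, a choice made after the counts were seen. Capitals mark CCGGAAG or its reverse complement CTTCCGG. All are from GRCm38.p6 on the gene's strand: Sf3a1 at chr11:4160294-4160353 (plus), Sf3a2 at chr10:80798633-80798692 (plus), Sf3a3 at chr4:124714745-124714804 (plus), Sf3b2 at chr19:5295458-5295517 (minus), Sf3b3 at chr8:110846994-110847053 (minus) and Sf3b6 at chr12:4817512-4817571 (plus).
Sf3a1: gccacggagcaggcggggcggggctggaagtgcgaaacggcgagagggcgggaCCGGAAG
Sf3a2: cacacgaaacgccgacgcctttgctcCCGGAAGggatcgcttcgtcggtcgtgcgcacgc
Sf3a3: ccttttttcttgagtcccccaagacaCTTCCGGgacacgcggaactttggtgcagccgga
Sf3b2: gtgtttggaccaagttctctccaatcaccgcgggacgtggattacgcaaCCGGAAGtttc
Sf3b3: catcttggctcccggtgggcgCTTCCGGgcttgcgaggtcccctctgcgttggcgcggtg
Sf3b6: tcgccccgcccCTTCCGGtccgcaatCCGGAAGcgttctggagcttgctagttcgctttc
Sf3b6 carries the letters in both directions with 8 bases between them. Counted from the start, with negative values before it, the match nearest the start begins at -7 in Sf3a1, -11 in Sf3b2, -70 in Sf3b6, -76 in Sf3a2, -90 in Sf3a3 and -229 in Sf3b3.

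The other letters were in no larger a share of members than of all protein-coding genes, apart from the NF-Y letters. TGACCA was in 3 of 29 members (10.3%), Srsf3, Srsf4 and Prpf8, beside 14.3% of all protein-coding genes and 13.5% of occupied ones. TGNCCA was in 14 (48.3%), beside 49.7% of all and 47.7% of occupied ones. CCAAT was in 13 (44.8%), beside 42.3% of all and 43.4% of occupied ones, with 5 of 8 PRPF genes holding it. AGATAA was in 1 (3.45%), Sf3b3, beside 11.2% of all and 7.09% of occupied ones. Median GC content of the members' windows was 61.3%, beside 61.7% for occupied and 50.7% for unoccupied genes. Their median CpG count was 25, beside 21 and 5.

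Around these genes, reproducible regions were frequent but lay mostly at ends of other genes. Of the 33 members, 26 (78.8%) had at least 1 reproducible region over 1 kb from both ends that lay inside the gene or within 20 kb of it, where 52.1% of protein-coding genes did. Among occupied protein-coding genes of the same range of lengths (734 to 58620 bp) the share was 70.5%, a comparison chosen after seeing the data. There were 56 such regions, 55 outside the genes and 1 inside, with a median of mean fold enrichment of 6.31. Of the 55, 33 (60%) lay within 1 kb of an end of another protein-coding gene, beside 54.3% in the occupied genes of that range of lengths.

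Srsf3 and Prpf6 had the most, 5 each. None of the 5 around Srsf3 lay within 1 kb of an end of another coding gene. Their fold enrichments ran from 3.24 to 6.36, and 1 of them lay at an end of the noncoding gene Trp53cor1. Of the 5 around Prpf6, 4 lay at ends of other coding genes, among them Sox18 and Samd10. Srsf5, Srsf6, Srsf11, Sf3b2, Sf3b5, Prpf4 and Prpf38b had 0.

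Of the 24 occupied members with a farther region, the strongest such region had a higher mean fold enrichment than the gene's own in 9, the same rounded value in 1 and a lower one in 14. The lower ones include Srsf1, at 8.04 beside 13.5, and U2af1, at 7.03 beside 9.13. Srsf2 had 11.7 at both, the farther region lying at ends of Jmjd6 and Mettl23. The 9 were Luc7l, Luc7l3, Prpf3, Prpf31, Prpf38a, Sf3a1, Sf3b3, Srsf4 and Srsf9. Where a gene had several farther regions, only the strongest was compared. The gap was below the larger SD at Luc7l3 (7.47 ± 1.46 beside 7.17 ± 1.11) and Sf3b3 (7.42 ± 0.74 beside 6.88 ± 1.60). So it was at Sf3a1 (7.46 ± 0.81 beside 6.49 ± 1.57) and Srsf9 (10.1 ± 1.43 beside 9.18 ± 0.59; SD, n = 3). At the rest of the 9 it was above. The region 8231 bp from Luc7l (chr17:26243551-26244668), at an end of Fam234a, had 14.3, 14.0 and 13.5 (13.9 ± 0.42, SD, n = 3), above the 9.46 at Luc7l. All 3 libraries lay within 1 unit of each other there. The region 9814 bp beyond the 3′ end of Prpf38a (chr4:108554505-108555053) had 13.4, 10.8 and 11.5 (11.9 ± 1.37, SD, n = 3) and touched no gene end. Srsf4 had a region of 10.2 ± 1.05 (SD, n = 3) 11827 bp before its 5′ end that also touched none. Prpf31 had one of 10.5 ± 0.42, at an end of Cnot3, and Prpf3 one of 10.4 ± 2.09, at an end of Rprd2 (SD, n = 3). The distances do not show which gene such a region belongs to.

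Inside the genes, over 1 kb from both ends, there was almost nothing. U2af2 alone (1 of 33, 3.03%) had a reproducible region over 1 kb from both ends within its body. The share was 19.8% of all protein-coding genes and 17.7% of occupied ones of 734 to 58620 bp. Genes were not matched by length within that range. Srsf4 had 1 inner peak in library 1 and 1 in library 2, at different places, and Srsf11 the inner start named above. SR protein genes carry conserved exons whose inclusion destroys the transcript. No reproducible region over 1 kb from both ends lay within any of the 11, whose median length was 7290 bp. The end region of Srsf1 does lie wholly inside the annotated gene. Whether any region covers such an exon was not examined.

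**Figure D4:**
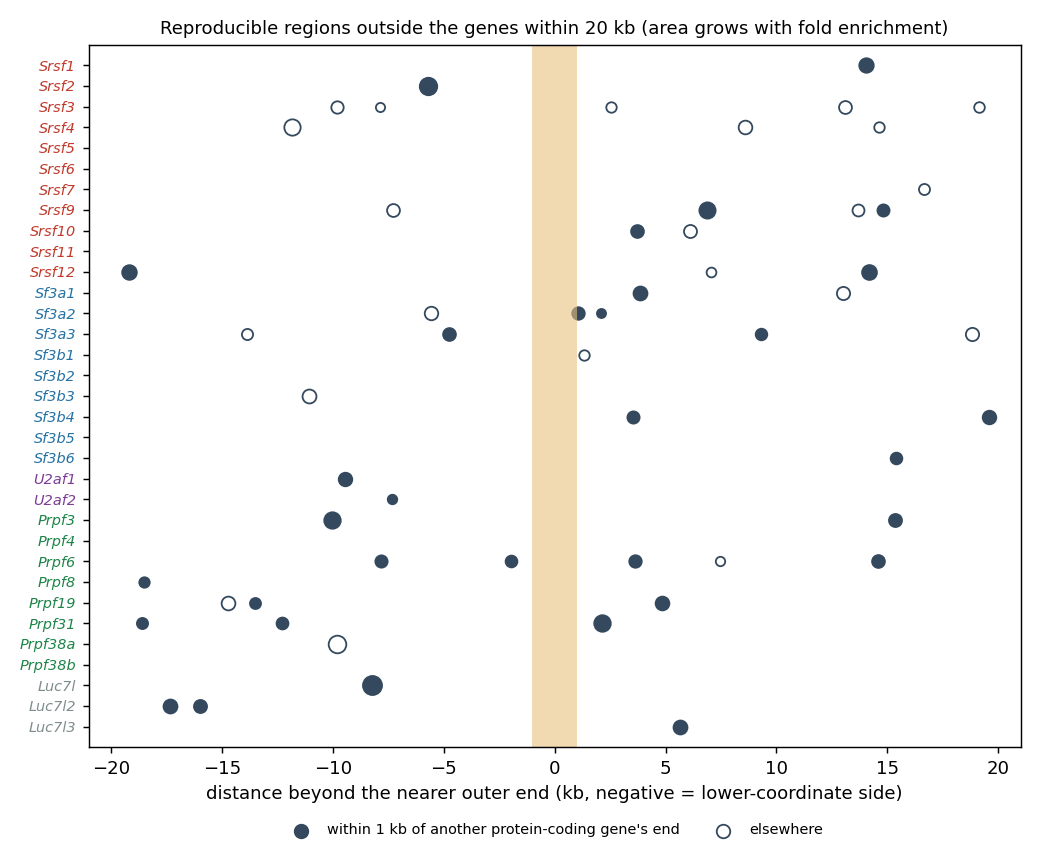
Each circle is a reproducible region outside a member within 20 kb, placed by its distance beyond the nearer outer end (x axis, kb, negative on the lower-coordinate side), with area growing with fold enrichment. The band marks 1 kb at the ends, filled circles (33 of 55) lie within 1 kb of another protein-coding gene's end, and Luc7l has the most enriched one at 13.9.

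Other genes of the splicing machinery were also mostly occupied. Of 92 further splicing genes, 76 (82.6%) were occupied, with a median fold enrichment of 8.36. The counts were 22 of 28 for snRNP proteins, 18 of 22 for Prp19-related proteins and helicases, 7 of 8 for the minor spliceosome, 11 of 14 for SR-related proteins and SR kinases, 7 of 7 for branch point and 3′ splice site partners and 11 of 13 for hnRNP proteins. The hnRNP class had the highest median, 10.7. The 3 strongest genes were Hnrnpa2b1 at 13.2 ± 0.65, the exon junction gene Rnps1 at 13.2 ± 2.08 and the SR-related Srrm1 at 13.2 ± 0.53 (SD, n = 3). The Hnrnpa2b1 region was shared with Cbx3 and the Rnps1 region with Eci1. Zrsr2, the U2AF-like gene of the minor spliceosome on chromosome X, had 5.80, 9.56 and 10.7 (8.68 ± 2.55, SD, n = 3), library 1 being far lower. Of the 16 that were not occupied, 10 had a peak in 1 or 2 libraries at an end, and Snrpb2, Ppih, Aqr, Snrnp48, Srpk2 and Hnrnph1 had none.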

How the data were processed

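CUT&Tag peak lists of 3 libraries were analysed. Bowtie2, SAMtools and MACS2 and the build mm10 are named in the submitters' processing notes, without versions; whether duplicates were removed is not stated there. Per the deposited lists, each peak has a score (10 times the −log10 q without decimals, not used), a fold enrichment (a ratio to local background), −log10 p, −log10 q and a summit offset. The authors listed peaks per library; the lowest −log10 q of 1.30 is the 0.05 threshold.

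Summit pileups were solved from fold enrichment, as pileup plus 1 over background plus 1, and −log10 p as a Poisson tail; all solved values came out whole within 0.05. The lowest background of a library is its library background. Peaks on autosomes, X and Y were joined at 1 bp overlap. Genes, starts and promoters are RefSeq GRCm38.p6; 29 members had a start. Joining and solving were tested on simulated data. No significance test was run. The members and lists were chosen with earlier results of these data known. All 33 members are named; of the 92 other splicing genes, the rule named the 3 strongest and those with no peak, and Zrsr2 was added after its values were seen. Alternatives were peak strength, overlap, libraries, windows and measure. Python 3.11.15, pandas 2.3.3 and SciPy 1.17.1 were used.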

Additional observations from a re-analysis of the deposited data

How the results depend on the processing

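No paired analysis was possible because there is 1 group of samples. With the 10000 peaks of lowest q, 16 members were occupied (6 SR, 3 SF3 and 3 PRPF genes), 38 other splicing genes and 4515 protein-coding genes, and 16 members had 20 farther regions. With −log10 q of at least 5, 5 SF3 genes were occupied, beside 38.1% of all protein-coding genes. With 50% reciprocal overlap 1 U2AF gene was occupied, beside 38.2% of all protein-coding genes. A reach of 10 kb left 30 farther regions. Leaving out a library gave 31 to 32 occupied members, beside 46.2% to 48.8% of all protein-coding genes. The median log2 fold enrichment of occupied members was then 2.89 to 2.93. That median was 2.96 with −log10 q of at least 5, 3.17 with the 10000 peaks, 2.94 with 50% overlap and 2.93 with a 3 kb window; for all occupied protein-coding genes it was 2.98, 3.26 and 2.95 in the first 3 of these and 2.79 with peaks of 2 libraries. As log2 pileup over library background the medians were 4.38 and 4.41, and as −log10 q 19.90 and 17.32, members first. The other counts stayed within 1.5 times. Low pileups (9 to 13 fragments in library 1) limit Srsf6, Srsf11, Sf3a1, Sf3b3, Sf3b5, Sf3b6 and Prpf3.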
